A study of Homo sapiens with 5 samples.

Results

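H/ACA box small nucleolar RNAs (SNORA names) and small Cajal body RNAs (SCARNA names) were examined in small RNA libraries of MCF10A cells. The members are all rows of the deposited count tables whose name starts with SNORA or SCARNA, which gave 110 rows of the 49965 named rows. They comprise 107 SNORA rows and 3 SCARNA rows (SCARNA10, SCARNA12 and SCARNA18). MCF10A is an immortalized, non-tumorigenic line of human mammary epithelial cells. All 5 libraries come from this line, kept in the same medium with horse serum, epidermal growth factor, insulin, cholera toxin and hydrocortisone, and no library carries a further genetic change by its labels. The attached group (3 libraries) grew on uncoated plates, and the detached group (2 libraries) was held in suspension over a 2% poly-HEMA coating, which keeps cells from adhering. The time label reads 0 h for attached and 24 h for detached cells, whereas the series' design describes both groups as cultured for 24 h, and this difference could not be resolved. Nothing states that the replicates came from separate cultures, so every p-value reflects library-to-library spread that could be technical.

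H/ACA RNAs fold into hairpins joined by a hinge and end in a short tail that carries the trinucleotide ACA near the 3′ end. Together with dyskerin they guide the conversion of uridine to pseudouridine in ribosomal RNA, and a few are instead needed for the cleavage of the ribosomal RNA precursor. Small Cajal body RNAs do the same kind of work on the spliceosomal snRNAs, and some combine an H/ACA part with a C/D part that guides ribose methylation. Most are cut out of introns of host genes. RNA of 18 to 24 nt was selected for these libraries, so each count is a fragment of an RNA that is several times longer, and a level here is not the level of the intact RNA. Fewer cells holding a fragment and less fragment per cell cannot be told apart in bulk RNA.

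The sequences of several members on which the results turn are printed in full here, from GENCODE 29 transcripts on GRCh38, 5′ to 3′, with the ACA box in capitals. SNORA73A and SNORA73B lie next to each other inside RCC1 and SNHG3. Their rows had the highest mean levels over 5 libraries, although SNORA74A was above both in attached replicate 1 and SNORA2B in detached replicate 1. SNORA73A is at chr1:28507366-28507571 and SNORA73B at chr1:28508559-28508762, both on the plus strand.
SNORA73A: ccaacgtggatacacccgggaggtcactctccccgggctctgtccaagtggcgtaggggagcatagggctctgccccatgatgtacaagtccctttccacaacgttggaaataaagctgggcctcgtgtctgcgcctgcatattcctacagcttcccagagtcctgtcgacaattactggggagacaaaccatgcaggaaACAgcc
SNORA73B: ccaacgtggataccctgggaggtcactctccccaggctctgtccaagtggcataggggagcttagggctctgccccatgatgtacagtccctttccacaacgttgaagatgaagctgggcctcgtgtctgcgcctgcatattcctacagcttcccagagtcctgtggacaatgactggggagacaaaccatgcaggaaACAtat
SNORA2A and SNORA2B come from introns of 1 host gene, KANSL2, and differed in how evenly they were counted. They lie on the minus strand at chr12:48656648-48656782 and chr12:48667457-48667593.
SNORA2A: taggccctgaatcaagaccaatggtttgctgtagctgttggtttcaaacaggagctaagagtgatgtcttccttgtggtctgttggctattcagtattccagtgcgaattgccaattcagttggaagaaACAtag
SNORA2B: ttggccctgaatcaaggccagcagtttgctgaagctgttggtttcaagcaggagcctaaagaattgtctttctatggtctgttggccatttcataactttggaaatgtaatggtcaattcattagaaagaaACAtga
SCARNA12 had the smallest adjusted p of all members, and SNORA7A was the tested member with both detached libraries below every attached one. SCARNA12 lies at chr12:6967337-6967606 on the minus strand, overlapping exon sequence of PHB2. SNORA7A lies at chr3:12840312-12840450 on the minus strand, overlapping exon sequence of RPL32.
SCARNA12: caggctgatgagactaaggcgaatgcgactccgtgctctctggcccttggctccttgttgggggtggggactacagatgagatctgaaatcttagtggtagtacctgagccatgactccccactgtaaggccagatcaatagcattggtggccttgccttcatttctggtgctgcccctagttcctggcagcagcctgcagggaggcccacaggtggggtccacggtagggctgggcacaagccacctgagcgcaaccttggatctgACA
SNORA7A: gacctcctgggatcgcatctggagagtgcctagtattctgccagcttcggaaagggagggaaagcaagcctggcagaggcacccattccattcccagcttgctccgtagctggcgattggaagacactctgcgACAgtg

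The ACA trinucleotide stood exactly 3 bases from the annotated 3′ end in 34 of the 45 gene entries matched to tested members (75.6%). Among these, SNORA17B and SNORA50A are entered more than once. The share was 76.2% over 112 of 147 SNORA genes in the annotation, which include most of these entries, and 1.44% (4 of 278) over C/D box SNORD genes. These shares describe annotated sequences found by name. No read enters them, so they do not show what the counted fragments are. In SCARNA12 the box is the last 3 bases of the annotated RNA. Of the 110 rows, 107 could be matched to an annotated gene, 11 of them by an older symbol, and all 40 tested rows lay within a host gene on the same strand.

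Named counts totalled 12366253, 8945953 and 10476182 in the attached and 16008489 and 10851744 in the detached libraries, each in the order of the replicate numbers, which is kept for all values that follow. Counts of names other than human miRNAs made up 1.72%, 1.58% and 1.47% of the attached and 1.35% and 2.93% of the detached libraries, so detached replicate 2 had the largest share of other small RNAs. The label was checked with miRNAs of cell types. The summed level of 5 epithelial miRNAs ran from 40954 RPM (counts per 1000000 named counts of the library) in attached replicate 2 to 116812 in detached replicate 2, the red and the white blood cell list each summed to at most 11.5 RPM in any library, and miR-133a-3p of muscle was at 0 in all 5. Attached replicate 2 stood apart from the other attached libraries, with the lowest epithelial sum, although miR-141-3p of that list was highest there (21616 RPM, against 12706 to 18507 in the others). The main results are therefore given with and without it.

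Fragments of these RNAs were rare. The members took 1130, 4833 and 2150 counts in the attached libraries and 2506 and 3582 in the detached ones, which is 0.00914%, 0.0540% and 0.0205% against 0.0157% and 0.0330% of the named counts. The attached libraries span a wider range than the detached ones and enclose both of them. A count was seen for 91 members, while 19 were at 0 in every library. Tests were run on the 40 members with a summed count of 20 or more (38 SNORA and 2 SCARNA rows). Just inside this limit were SNORA80B with 20 counts, the SNORA69 row with 21 and the SNORA31/SNORA3 row with 25, and just outside it were SNORA45A with 19 and SNORA25, SNORA37 and SNORA47 with 18 each. SNORA45A and the SNORA3 part of the SNORA31/SNORA3 row were matched to the same gene, SNORA3A. Counts of that gene may therefore lie on both sides of the limit. A single count was worth 0.0625 to 0.112 RPM, and the 3 counts that a value of 0 still allows were worth 0.187 to 0.335 RPM. The 4 most abundant rows held 72.2% of all member counts, and 14 members had 10 or more counts in every library. The limit leans on single libraries, since 7 tested members fall below 20 counts without detached replicate 2. Of the 40, 23 had 20 or more counts in each group, 9 in detached cells only and 3 in attached cells only.

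Summed SNORA levels were 88.0, 539 and 203 RPM in attached and 146 and 317 in detached cells, or 277 ± 235 (SD, n = 3) against 231 ± 121 (SD, n = 2), a ratio of 0.836. The groups overlap, and without attached replicate 2 the ratio was 1.59. The SNORA73A and SNORA73B rows made up 74.9% of the member counts of that library, and 21.2% to 53.3% elsewhere. They held 19.3, 405 and 109 RPM in attached and 52.8 and 136 RPM in detached cells. All other SNORA rows together stood at 68.7, 135 and 93.9 RPM against 93.1 and 181, a ratio of 1.38, or 1.68 without attached replicate 2. The C/D box class, which shares the nucleolus and the intronic origin, had a ratio of 1.37 (1311, 2186 and 1480 against 1668 and 2872 RPM), or 1.63 without attached replicate 2.

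Summed SCARNA levels were 3.40, 0.894 and 2.00 RPM in the attached libraries and 10.7 and 13.1 in the detached ones. Both detached libraries lay above all attached ones, with means of 11.9 ± 1.70 (SD, n = 2) and 2.10 ± 1.25 (SD, n = 3) and a ratio of 5.66, or 4.40 without attached replicate 2. This sum rests on SCARNA10 and SCARNA12, because SCARNA18 had 10 counts in all. A sum over chosen rows was given no test. Such a rise was not particular to scaRNAs. The 5S rRNA class had 51.9, 62.6 and 40.1 against 157 and 328 RPM, a ratio of 4.71, or 5.27 without attached replicate 2. The snRNA class overlapped between the groups and had a ratio of 2.20, or 2.41 without attached replicate 2.

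**Figure D1:**
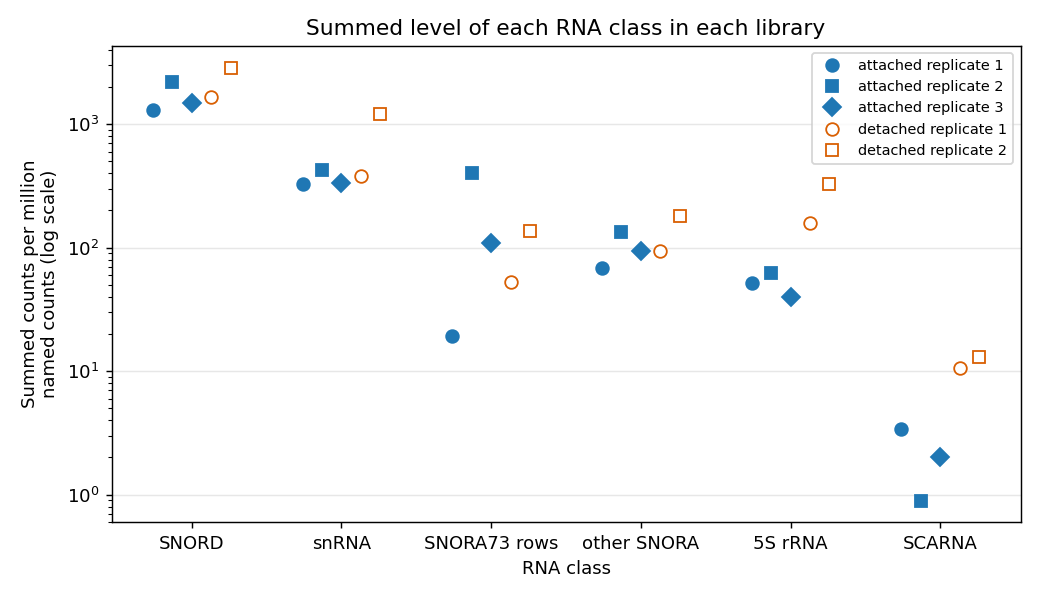
Summed level in RPM (log scale) of each RNA class, with 1 point per library, filled for attached and open for detached cells. SNORA is split into the 2 SNORA73 rows, highest in attached replicate 2 at 405, and the other SNORA rows, highest in detached replicate 2 at 181. Both open points lie above every filled one for SCARNA (10.7 and 13.1) and for 5S rRNA (157 and 328).

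No member passed an adjusted p of 0.05 in edgeR's quasi-likelihood test with Benjamini-Hochberg adjustment over 1596 rows of all RNA classes, with all 5 libraries or without attached replicate 2. The share of all rows called was 0.0% in both fits. In simulated counts most 4-fold and 8-fold changes went uncalled in both fits, so the lack of calls does not show equal levels. The smallest adjusted p of a member was 0.302 with all libraries and 0.282 without attached replicate 2, each for SCARNA12. At an unadjusted p under 0.05, 5 members were higher and 1 was lower in detached cells with all libraries, where 8.02% and 1.19% of all rows reached that point. Without attached replicate 2 the counts were 4 and 1, against 10.1% and 1.82% of all rows. DESeq2 called 0 members in either set of libraries (1 higher and 1 lower at an unadjusted p under 0.05 in each), while it called 33 of all 1596 rows (2.07%) with all libraries and 55 (3.45%) without attached replicate 2. At that unadjusted p it had 90 of all rows higher and 78 lower, or 120 and 53 without attached replicate 2. limma-voom called 0 members and 0 rows of any class (members at an unadjusted p under 0.05 numbered 4 and 0 with all libraries, 2 and 0 without attached replicate 2). Of all 1596 rows it had 109 higher and 10 lower at that point, or 122 and 14 without attached replicate 2. The authors' deposited table lists 64 member rows, none with several names joined, so the SNORA73B row is not among them. Of the 64, 0 had an adjusted p under 0.05, against 18 of all 44736 rows, and some had no adjusted p. SCARNA12 has a log2 fold change of 2.36 there (adjusted p 0.466). When attached replicate 2 and 1 detached library were both left out, so that the lone detached library was assumed to vary like the attached ones, edgeR called 6 members without detached replicate 1 (9.65% of all rows called) and 4 without detached replicate 2 (5.45% of all rows). SCARNA12 was called higher in both, while SNORA5C, SNORA10, SNORA60, SNORA71A and SNORA71C were called higher only in the first fit, and SNORA2A, SNORA7A and SNORA54 lower only in the second. Whether the 2 detached libraries differ in these members cannot be tested with 1 library each.

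Log2 fold changes (detached over attached) were positive for 28 and negative for 12 of the 40 tested members, with a median of 0.96 where all 1596 rows had 0.33. Without attached replicate 2 they were positive for 34, with a median of 1.07 against 0.25. Because 9 members reached 20 counts in detached cells only and 3 in attached cells only, these tallies are not independent of the filter. Scaling by TMM, which shifts the median of all rows by 0.33 to 0.00, left 23 positive and a median of 0.41. This direction rests on detached replicate 2: without it the members' median was -0.58, with 14 positive and 26 negative, and the median of all rows was -0.08. Without detached replicate 1 it was 1.48. The 115 tested SNORD rows had a median of 0.56 (0.60 without attached replicate 2), with 0 called in either fit.

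Both detached libraries lay above every attached library for 8 of the 40 members (20.0%), and 20.8% of all tested rows did the same. The 8 were SCARNA10, SCARNA12, SNORA2B, the SNORA43/SNORA4 row, SNORA53, SNORA57, SNORA59B and SNORA80B. SNORA53, SNORA57 and SNORA59B reached 20 counts in detached cells only, so this tally is not independent of the filter. SNORA53 and SNORA80B fall below 20 counts without detached replicate 2. Scaling matters too: with the size factors of the authors' deposited table, SNORA2B and SNORA80B overlap between the groups, and the rest of the 8 do not. SNORA7A, which reached 20 counts in attached cells only, was the 1 member (2.5%) with both detached libraries below, against 6.83% of all rows. Without attached replicate 2 the counts were 12 (30.0%) above and 1 below, where 29.2% and 12.6% of all rows were found. The members' shares above were thus close to the background in either set.

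**Figure D2:**
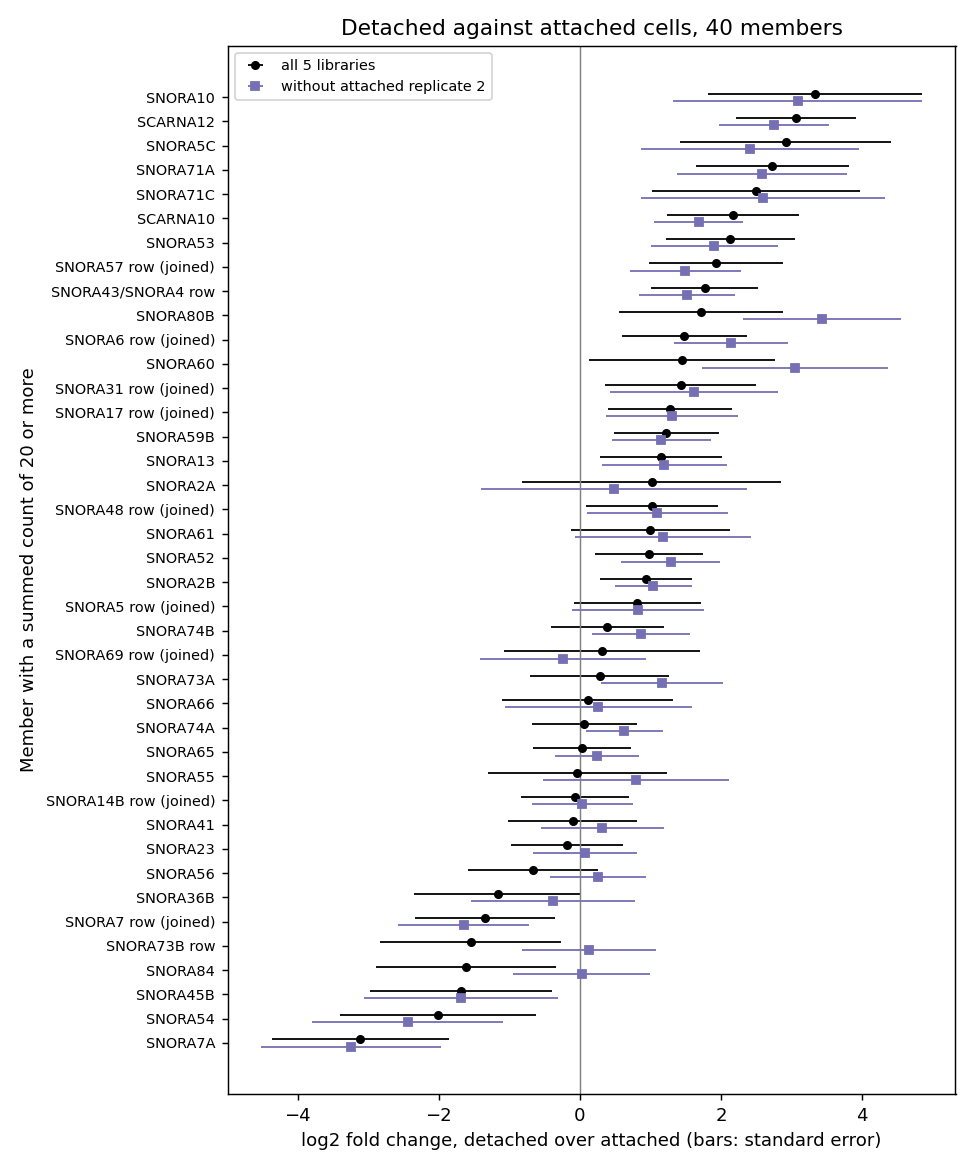
Log2 fold change (detached over attached, edgeR) with its standard error for each of the 40 tested members, as circles for all 5 libraries and squares without attached replicate 2. Circles run from SNORA10 at 3.34 to SNORA7A at -3.11, and none passed an adjusted p of 0.05.

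Among the scaRNAs, SCARNA12 combines a C/D and an H/ACA part. Its levels were 1.29, 0.335 and 0.382 RPM in attached and 5.75 and 5.81 RPM in detached cells, from 16, 3 and 4 against 92 and 63 counts. The detached libraries were nearly equal and both were far above the highest attached one. The log2 fold change was 3.07 ± 0.85 (SE) with all libraries and 2.76 ± 0.78 without attached replicate 2, with edgeR adjusted p of 0.302 and 0.282. Unlike most members, its value hardly differed with the detached library used: it was 3.07 without detached replicate 1 and 3.06 without detached replicate 2.

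SCARNA10 is likewise a composite RNA and guides both kinds of modification in U5 snRNA. It lies at chr12:6510222-6510551 on the plus strand, in NCAPD2, on the same chromosome as SCARNA12. Its levels were 2.10, 0.224 and 1.53 RPM in attached and 4.75 and 7.0 RPM in detached cells (26, 2 and 16 against 76 and 76 counts). The groups do not overlap, and attached replicate 2 was the lowest library. The log2 fold change was 2.17 ± 0.93 (SE; edgeR adjusted p 0.540), and 1.69 ± 0.63 without attached replicate 2 (edgeR adjusted p 0.374). The annotated RNAs of SCARNA10 and SCARNA12 shared 0.0% of their 18-base words, so no read of 18 bases or more could match both exactly. SCARNA18, an H/ACA scaRNA, had counts of 0, 3 and 1 against 3 and 3 and was too rare to test.

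The next group holds H/ACA RNAs of early ribosomal RNA processing, SNORA73A and SNORA73B, listed together with SNORA74A and SNORA74B. The row called SNORA73B here joins 3 names, and its SNORA73 entries were matched to no annotated gene. It stood at 11.6, 330 and 75.3 RPM in attached and 26.5 and 68.7 RPM in detached cells. Attached replicate 2 was far above every other library, and the remaining 4 overlap between groups. The log2 fold change was -1.55 ± 1.28 (SE; edgeR adjusted p 0.768) with all libraries and 0.13 ± 0.95 without attached replicate 2, so that 1 library sets its sign. SNORA73A stood at 7.68, 74.3 and 34.0 RPM in attached and 26.2 and 67.5 RPM in detached cells. Its log2 fold change was 0.28 ± 0.99, then 1.17 ± 0.87 without attached replicate 2 and -0.56 without detached replicate 2.

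SNORA74A was steadier, at 20.4, 53.0 and 22.8 RPM in attached and 26.4 and 40.5 RPM in detached cells, with a log2 fold change of 0.06 ± 0.75. SNORA74B stood at 1.86, 3.13 and 0.955 RPM against 2.06 and 3.13 RPM, with a log2 fold change of 0.39 ± 0.80. The ranges overlap through attached replicate 2: without it both detached libraries lay above the attached ones in both RNAs, and the log2 fold changes were 0.63 ± 0.55 and 0.87 ± 0.69. Of these 4 rows 0 were called, and their median log2 fold change was 0.17, or 0.75 without attached replicate 2. Per 100 bases of annotated RNA, the mean level over the 5 libraries was 50.2 RPM for the SNORA73B row, 20.4 for SNORA73A, 16.5 for SNORA74A and 13.1 for SNORA2B, and the following member (SNORA14B) had 4.27. Without attached replicate 2 the first 4 of these were 22.3, 16.4, 13.9 and 13.7, much closer to each other.

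**Figure D3:**
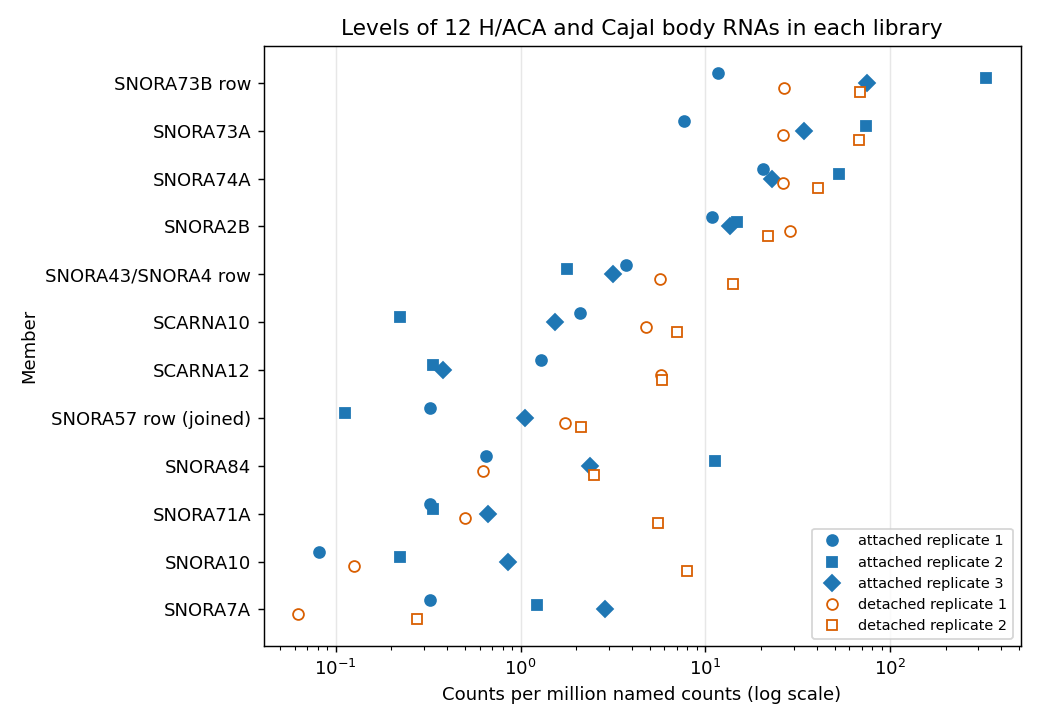
Level in RPM (log scale) of 12 members in each library, filled for attached and open for detached cells. The SNORA73B row reaches 330 in attached replicate 2, and both open points of SCARNA12 sit near 5.8 above every filled point. For SNORA10 1 open point (7.92) lies far from the other 4 libraries.

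Within the SNORA73 pair the balance of the 2 rows differed between libraries. The SNORA73B row held 60.3% (95% Wilson interval 53.9 to 66.2), 81.6% (80.3 to 82.9) and 68.9% (66.2 to 71.5) of the pair's counts in attached cells. It held 50.3% (46.9 to 53.7) and 50.4% (47.9 to 53.0) in detached cells. Every attached library was above both detached ones, and the lowest attached interval does not reach the detached intervals, which cover counting error only. With 3 libraries against 2 there are 10 arrangements, so a one-sided exact permutation test cannot go below p = 0.1, and none was run. The 2 RNAs are 94.1% identical and share 30.7% of the 18-base words of SNORA73A, and the labels and files do not state how reads matching both were assigned. The SNORA73B row also carries SNORA73 names without a matched gene, so its counts may not be of SNORA73B alone. The share was chosen for description after the levels were seen.

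SNORA2A and SNORA2B lie in the same host gene, are 79.3% identical and share 0.0% of their 18-base words. SNORA2B, a guide-type H/ACA RNA, varied little within each group, at 10.8, 14.9 and 13.7 RPM in attached (13.1 ± 2.07, SD, n = 3) and 28.5 and 21.8 RPM in detached cells (25.2 ± 4.74, SD, n = 2). Both detached libraries were above all attached ones in RPM. With the size factors of the authors' deposited table, attached replicate 2 was above detached replicate 2. The log2 fold change of SNORA2B was 0.94 ± 0.65 (SE), with 0.695 as its edgeR adjusted p, or 1.04 ± 0.55 without attached replicate 2. It was 1 of the 3 members that were higher in detached replicate 1 than in detached replicate 2. SNORA2A, in contrast, had counts of 49, 1 and 0 in attached against 2 and 60 in detached cells. Its share of the pair was 26.8% and 20.2% in attached replicate 1 and detached replicate 2, and 0.746%, 0.0% (interval up to 2.62%) and 0.436% in the other three. Those 2 high libraries belong to different groups, so the split does not follow attachment.

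**Figure D4:**
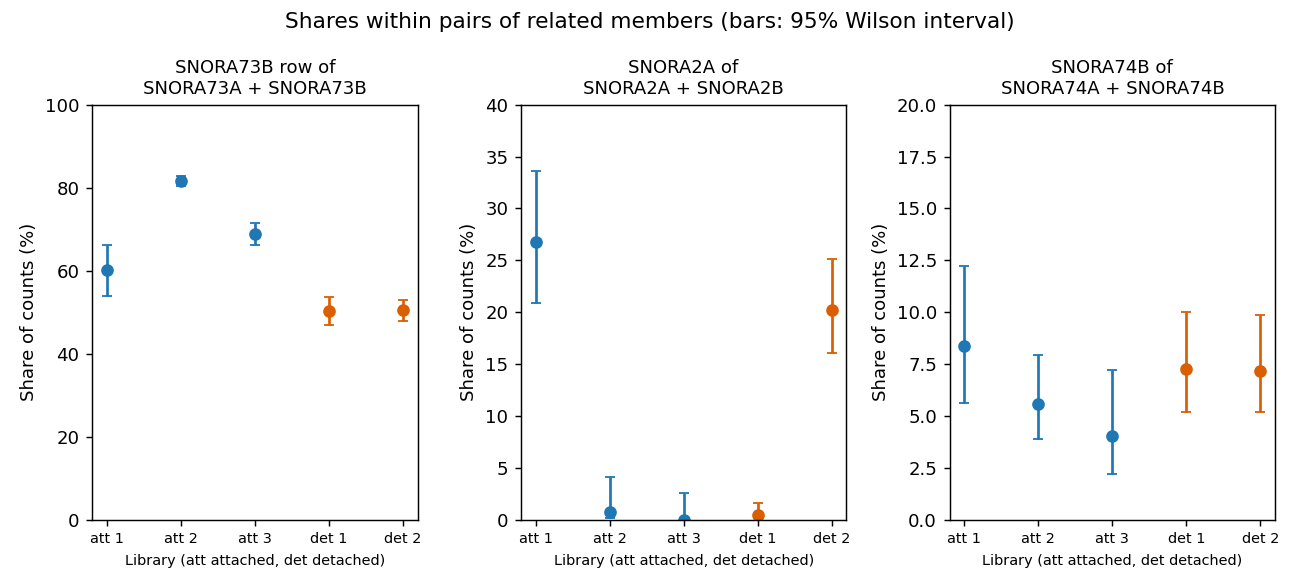
Share of counts (%) held by 1 member of each of 3 pairs, per library, with 95% Wilson intervals. The SNORA73B row, which joins several names, holds 60.3% to 81.6% in attached and about 50.4% in detached libraries. SNORA2A is near 0 in 3 libraries of both groups, and SNORA74B stays between 4.02% and 8.36%.

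The remaining 34 tested rows are guide or orphan H/ACA RNAs, of which 0 were called. Their log2 fold changes were positive for 23 and negative for 11, and the median was 0.99. Their median was -0.84 without detached replicate 2. Many had most of their counts in detached replicate 2. SNORA10, hosted by RPS2, had counts of 1, 2 and 9 in attached against 2 and 86 in detached cells. It shares 81.0% of its 18-base words with SNORA10B at another locus, so reads of the shared bases cannot be assigned to either copy. SNORA71A, from SNHG17, had 4, 3 and 7 against 8 and 60, and SNORA71C from the same host had 0, 2 and 4 against 1 and 25. SNORA60, from SNHG11, had 2, 18 and 4 against 5 and 47, and SNORA5C had 1, 0 and 4 against 1 and 27. In each of these 5 members detached replicate 1 lay within the attached range, so the group difference is that of 1 library. Their log2 fold changes ran from 1.45 ± 1.31 for SNORA60 to 3.34 ± 1.52 for SNORA10, none with an adjusted p under 0.05. SNORA60 had 3.05 ± 1.32 without attached replicate 2. Without detached replicate 2 the 5 values ran from -1.55 for SNORA10 to 0.17 for SNORA71A. The SNORA48 row, in EIF4A1, was also highest in detached replicate 2 but lowest in detached replicate 1, with 3.07, 2.68 and 1.43 RPM in attached and 1.19 and 8.57 RPM in detached cells. Its log2 fold change was 1.02 ± 0.94, and -1.01 without detached replicate 2. The joined SNORA6/SNORA68 row, whose RNAs lie in ribosomal protein genes, stood at 0.404, 1.01 and 0.286 against 0.875 and 2.30 RPM, and its log2 fold change was 1.48 ± 0.88, or 2.15 ± 0.81 without attached replicate 2 and 0.64 without detached replicate 2.

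Detached replicate 2 exceeded detached replicate 1 for 37 of the 40 members (92.5%), against 74.2% of all tested rows and 93.0% of SNORD rows. It exceeded it more than 3-fold for 19 (47.5%), against 18.6% of all rows and 28.7% of SNORD rows, and the reverse was found for 0 members. Of all 5 libraries it was the highest for 24 members (60.0%), against 42.5% of all rows and 61.7% of SNORD rows, while attached replicate 2 was the highest for 10. Between libraries, the rank order of the 40 members had a Spearman correlation of 0.625 in the detached pair, and of 0.539, 0.521 and 0.734 in the attached pairs. Across groups it ran from 0.424 to 0.709, and the ranges within and across groups overlap. These correlations run over members that share libraries and depth and carry no p. Detached replicate 2 was also the library with the most RNA other than miRNA, and the part of this in the members' values was not tested.

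**Figure D5:**
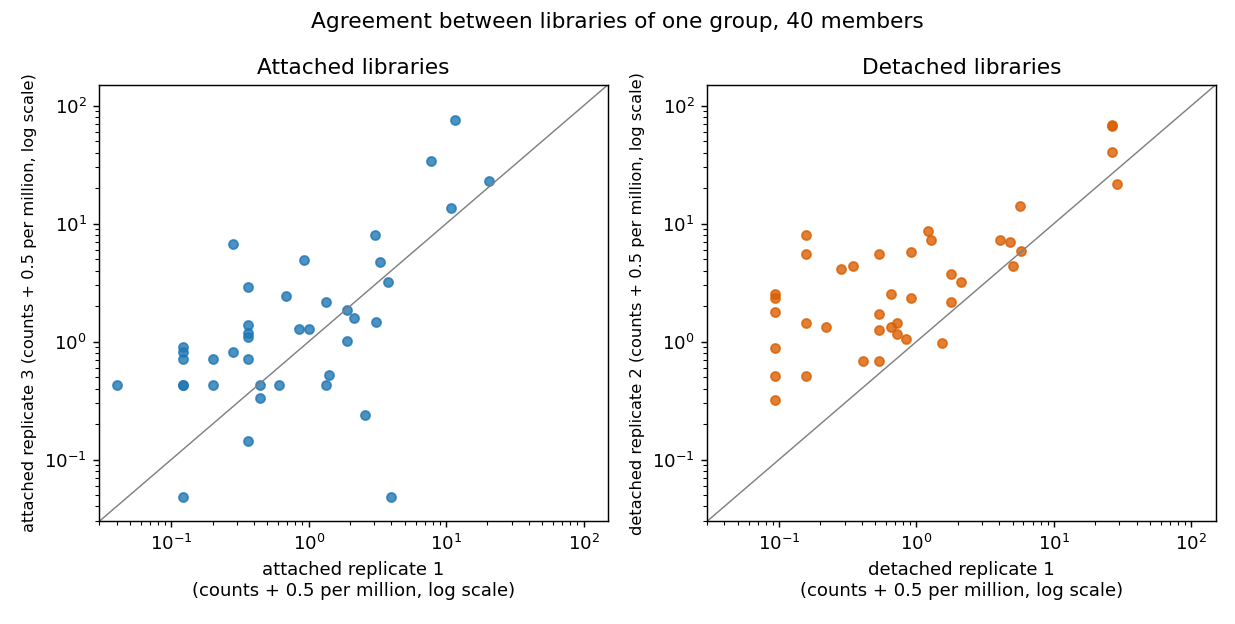
Levels of the 40 tested members in attached replicate 1 against 3 (left) and detached replicate 1 against 2 (right), in RPM after adding 0.5 counts, on log scales with the line of equality. In the right panel 37 members lie above the line, 19 of them by more than 3-fold.

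A smaller number of guide-type members separated the groups with modest counts. The SNORA43/SNORA4 row stood at 3.72, 1.79 and 3.15 RPM in attached and 5.68 and 14.1 RPM in detached cells, and its log2 fold change was 1.77 ± 0.76 (SE), with 0.540 as the edgeR adjusted p, or 0.97 without detached replicate 2. Its name joins RNAs of different hosts, SNORA43 (now SNORA17B) in SNHG7 and SNORA4 in EIF4A2, which share 0.0% of their 18-base words. SNORA57 had counts of 4, 1 and 11 against 28 and 23, SNORA53 had 4, 1 and 1 against 8 and 13, and SNORA80B had 1, 4 and 0 against 8 and 7. Their log2 fold changes were 1.93 ± 0.95, 2.13 ± 0.91 and 1.72 ± 1.16. They were 1.49 ± 0.79, 1.90 ± 0.90 and 3.44 ± 1.12 without attached replicate 2, and SNORA57 had 3.05 without attached replicate 3. For these 3 RNAs both detached libraries are higher than all attached ones in RPM, yet the values rest on few counts. SNORA53, SNORA57 and the following SNORA59B reached 20 counts in detached cells only. SNORA53 and SNORA80B fall below 20 counts without detached replicate 2. With the size factors of the authors' deposited table, SNORA80B overlaps between the groups. SNORA59B had 5, 3 and 4 against 11 and 12 counts, while SNORA59A, whose sequence is 100% identical, was at 0 in every library, so reads of this pair cannot be assigned to a locus.

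Lower levels in detached cells were seen for few members. SNORA7A, in the ribosomal protein gene RPL32, had counts of 4, 11 and 30 in attached against 1 and 3 in detached cells, or 0.323, 1.23 and 2.86 against 0.0625 and 0.276 RPM. Both detached libraries were below all attached ones, by a narrow margin against attached replicate 1. The log2 fold change was -3.11 ± 1.25 (SE; edgeR adjusted p 0.531), and the authors' deposited table gives -2.54 (adjusted p 0.648). Its near-copy SNORA7B (98.6% identical) had counts of 1, 5 and 3 in attached but 0 in both detached libraries. SNORA7A and SNORA7B share 70.5% of their 18-base words, so reads of the shared bases cannot be assigned to either copy. The joined SNORA7/SNORA79 row stood at 0.890, 1.23 and 4.87 RPM in attached and 0.812 and 1.01 RPM in detached cells, with a log2 fold change of -1.34 ± 0.99 that was -0.21 without attached replicate 3.

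Other members with negative values had wide attached ranges. SNORA54, hosted by NAP1L4, had counts of 31, 3 and 2 against 1 and 5. SNORA84, hosted by IARS, was at 0.647, 11.3 and 2.39 RPM against 0.625 and 2.49 RPM, and its log2 fold change of -1.62 ± 1.28 became 0.03 without attached replicate 2. SNORA45B (now SNORA3B), hosted by RPL27A, stood at 0.243, 3.47 and 6.68 RPM against 0.500 and 1.66 RPM. In all 3 the groups overlap. Without attached replicate 1 the log2 fold change of SNORA54 went from -2.01 to -0.08. Members with log2 fold changes near 0 included SNORA65, hosted by RPL12, at 3.23, 5.81 and 4.68 against 5.00 and 4.33 RPM (log2 fold change 0.03 ± 0.69, or 0.24 ± 0.59 without attached replicate 2), and the SNORA14B row, hosted by TOMM20, at 2.99, 6.71 and 7.92 against 4.0 and 7.19 RPM.

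Host genes were compared by kind, and a joined row was placed by any matched host. The SNORA43/SNORA4 row (SNHG7 and EIF4A2) thus counts as SNHG, and the SNORA31/SNORA3 row (TPT1 and RPL27A) as ribosomal protein. The SNORA7/SNORA79 row counts as other, since only its SNORA79 name was matched. The 9 tested rows in hosts named SNHG (small nucleolar RNA host genes) had 8 positive log2 fold changes and a median of 1.28. The 9 in ribosomal protein genes had 7 positive and a median of 0.31, and the other 22 had 13 positive and a median of 0.88. The medians were 1.30, 0.26 and 0.85 without attached replicate 2. Without detached replicate 2 they were -0.56, -1.55 and -0.58, so none of the 3 host groups kept its sign. All 3 groups had 0 members called.

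Several H/ACA RNAs contain a mature miRNA of the reference set, and how reads of those bases were divided between the 2 names is not stated in the labels or files. SNORA36B, in an intron of RAB3GAP2, holds both arms of miR-664a, and SNORA81, overlapping exon sequence of EIF4A2, holds miR-1248 at its 5′ end. Both are shown with the miRNA bases in capitals, SNORA36B at chr1:220200546-220200676 on the minus strand and SNORA81 at chr3:186786675-186786852 on the plus strand (GRCh38, miRNA sequences from RefSeq, GRCh38.p14).
SNORA36B: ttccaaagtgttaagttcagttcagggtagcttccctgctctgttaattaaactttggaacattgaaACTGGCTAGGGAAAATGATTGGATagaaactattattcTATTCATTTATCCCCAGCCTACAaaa
SNORA81: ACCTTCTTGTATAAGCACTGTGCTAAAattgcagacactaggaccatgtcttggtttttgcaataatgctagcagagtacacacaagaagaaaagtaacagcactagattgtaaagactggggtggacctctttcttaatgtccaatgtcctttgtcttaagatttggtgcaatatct
The SNORA36B row itself had counts of 1, 11 and 7 against 2 and 5. Under miR-664a-3p (bases 106 to 128) there were 2, 1 and 9 counts against 23 and 43, and under miR-664a-5p (bases 68 to 91) 61, 40 and 62 against 98 and 68. The log2 fold change was -1.17 ± 1.18 (SE) for the SNORA36B row, 2.79 ± 1.04 for miR-664a-3p and 0.28 ± 0.66 for miR-664a-5p, and the edgeR adjusted p was 0.818, 0.462 and 0.930. These log2 fold changes were -0.38, 2.40 and 0.19 without attached replicate 2.

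The row that holds SNORA81 had 1 count in all, whereas miR-1248, its first 27 bases, had counts of 4, 0 and 4 in attached against 34 and 92 in detached cells. Both detached libraries were far above the attached ones, and the log2 fold change was 4.39 ± 1.17 (SE), or 3.87 ± 0.94 without attached replicate 2, with edgeR adjusted p of 0.255 and 0.242. At 27 bases, full-length miR-1248 lies above the 18 to 24 nt selected for these libraries, and the counts do not give read lengths. In SNORA34 (now SNORA2C), the third H/ACA RNA of KANSL2, bases 2 to 25 are miR-1291. That row had 5 counts in all, and miR-1291 had counts of 16, 48 and 7 against 9 and 6, with a log2 fold change of -2.10 ± 1.10 (edgeR adjusted p 0.600), or -0.81 ± 0.70 without attached replicate 2, the library with its 48 counts. SNORA84 ends in miR-3651, which had 0, 0 and 1 against 2 and 2 counts. For each of these 4 RNAs the miRNA name and the row of the host RNA have to be read together to see all counted fragments.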

How the data were processed

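Small RNA libraries of MCF10A cells, 3 attached and 2 detached, were compared, grouped by their titles. The deposited tables hold raw read counts per named small RNA, and their 5 summary rows total 0. Per the submitters' processing notes, build hg38 and DESeq2 were used, with no role or version stated. Which aligner and counter were used, and how multiply matching reads were handled, is not given in the sources used here. The authors' deposited comparison table gives log2 fold changes, a test score, p-values and a signal per library, which is the counts divided by a size factor (0.704 to 1.34); multiplied back, 100% of these values were whole within 0.01 and equal to the counts, so the count test applies to them unchanged. Its columns match the libraries by their tags, and 44736 names are listed, 18 of them with an adjusted p under 0.05.

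Counts were divided by all named counts of the library and given per 1000000 (RPM). edgeR 4.0.16 (quasi-likelihood, R 4.3.3, two-sided, library size without a further factor) was fitted to 1596 rows of all classes with a summed count of 20 or more, with and without attached replicate 2, and p was adjusted over all of them (Benjamini-Hochberg). A standard error is the log2 fold change divided by the root of its F. The test was checked on simulated counts in which some rows carried a known change. With all 5 libraries the share of such rows called was 11.9% at 4-fold, 16.9% at 8-fold and 60.3% at 16-fold. Without attached replicate 2 the shares were 9.38%, 27.1% and 69.7%. Calls numbered 61 with all libraries, 1 of them false, and 71 without attached replicate 2, with 0 false. Alternatives were TMM, RLE and miRNA totals as scaling, DESeq2 1.42.0, limma-voom 3.58.1, other filters, a replicate block and leaving out each library. Loci, hosts and sequences came from GENCODE 29, older symbols and miRNAs from RefSeq tables (GRCh38.p14), and SNORA56 holds no miR-664b. The sequence of 1 member is not reported here. Wilson intervals are at 95% and cover counting error only, and the labels name no molecular identifiers, so that PCR copies count as reads.

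The members and lists were chosen with earlier results of these data known. The named members were the 10 with the highest mean level and the 5 smallest p in each direction in each fit. Added to these were the SCARNA rows with 20 or more counts, those called in either fit and those beside the limit of 20 counts. SNORA34, SNORA36B, SNORA81 and SNORA84 were named because they carry a miRNA. SNORA36A and SNORA36C, which hold miR-664b bases, are not described. The other members (among them SNORA2A, SNORA5C, SNORA7B, SNORA10, SNORA57, SNORA59A, SNORA59B, SNORA71C, SNORA74B and SCARNA18) were chosen after their values were seen. Joined names were kept as 1 row (46 of the 110).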

Additional observations from a re-analysis of the deposited data

How the results depend on the processing

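With all 5 libraries 0 members were called under TMM, RLE and miRNA-total scaling, DESeq2, limma-voom, the other filters and each library left out, and the fit with a replicate block also called 0 (2 higher and 0 lower at an unadjusted p under 0.05). In the replicate-block fit 74 of all 1596 rows were higher and 7 lower at that point (5.08%). The labels share only the replicate number, with 2 pairs, and without attached replicate 2 no paired fit was possible because a single number is shared. Without attached replicate 2, leaving out 1 more library gave 0 to 6 members called: 6 higher without detached replicate 1 (SCARNA12, SNORA5C, SNORA10, SNORA60, SNORA71A and SNORA71C, where 9.65% of all rows were called), and 4 without detached replicate 2 (SCARNA12 higher, SNORA2A, SNORA7A and SNORA54 lower, where 5.45% were). The lone detached library was there assumed to vary like the attached ones, and of these SCARNA12 was called in both (adjusted p 0.0435 and 0.0491). Of 516 alternative values for 21 named members, 510 kept their side of the threshold, 6 passed it, and 48 had the other sign. The tested members number 40, against 91 with any count and 18 with 100 or more. Leaving out 1 library, the summed ratio ran from 0.527 to 1.59 for SNORA and from 4.40 to 8.20 for SCARNA. Under other denominators and row choices it ran from 0.611 to 1.33 and from 4.77 to 7.38. Without a filter edgeR called 47 of 9771 rows and 0 of 91 members (6 higher and 3 lower at an unadjusted p under 0.05). Of all 9771 rows, 218 were higher and 87 lower at that point. Depth limits single members, since 4 rows hold 72.2% of the members' counts.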
